A study of Mus musculus with 4 samples.

Results

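Genes of cytoplasmic and nuclear mRNA decay were followed in libraries labelled as mouse, with and without 1-nitropyrene whose label names MLE-12, a line of lung epithelial origin immortalized with SV40 large T antigen under the surfactant protein C promoter. The set was fixed by name and held 45 genes of the 53465 in the count table: 11 CCR4-NOT subunits, 3 TOB and BTG adaptors, 3 further deadenylases, 6 decapping factors, 2 exonucleases that start at the 5′ end, 11 RNA exosome subunits, 7 factors of nonsense-mediated decay (NMD) and 2 ZFP36 family proteins. All 45 were found in the table, and 36 had enough reads to be tested. Of the other 9, the counts of 5 were 0 in all 4 libraries and 4 fell below the filter on low counts.

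Most mRNAs are degraded in a fixed order. CCR4-NOT, with PAN2-PAN3 and PARN, shortens the poly(A) tail, after which DCP2 removes the cap and XRN1 digests the body from its 5′ end, or the exosome digests it from its 3′ end. NMD removes transcripts with premature stop codons through the helicase UPF1, and ZFP36 proteins bring CCR4-NOT to transcripts with AU-rich elements, many of which encode cytokines and immediate early factors.

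The control group (n = 2, replicates 1 and 2) carried the label MLE-12 with the treatment given as control, and the treated group (n = 2, replicates 2 and 3) the label MLE-12 with 12 h of 5 µM 1-nitropyrene, a nitrated polycyclic hydrocarbon of diesel exhaust. Both groups share this immortalized line, and the labels name no genotype and no vehicle. Nothing in the labels says that libraries of a group came from separate cultures, so p-values measure only the spread between these libraries, which may be technical. Polyadenylated RNA was sequenced, and total counts ran from 6908055 to 10773733 per library.

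The libraries lacked most markers of their label. Of 12 markers of lung epithelium 9 were at 0 in all 4 libraries, among them Nkx2-1, Epcam, Cdh1, Krt8 and Krt18, Sftpc had a single read in all, and the summed level of the 12 ran from 8.11 to 10.4 CPM (reads scaled to the total of the library) in controls and from 8.02 to 9.43 CPM in treated libraries, most of it Abca3. Markers of mesenchyme summed to 344 and 346 CPM in controls and 385 and 401 CPM in treated libraries, nearly all of it vimentin (Vim). Smooth muscle markers reached 2.32 and 5.57 CPM in controls against 0 and 1.93 CPM in treated libraries, endothelial and leukocyte markers stayed under 0.3 CPM, and neural markers lay between 3.02 and 4.34 CPM. Of all protein-coding genes 55.2% had no read in any library, and ribosomal RNA loci held 44.3% to 46.1% of the counts. Whether the reads come from the labelled line, or from mouse RNA at all, was not tested. A count of 0, a level per gene and a level per kb below are therefore values of this table, and may not give the expression of the gene in MLE-12. The part of these features in the results was not tested.

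With 1-nitropyrene, the CCR4-NOT scaffold gene Cnot1 rose 1.33-fold and the AU-rich element binding protein gene Zfp36l1 fell to 0.697 of its control level. Smaller changes were called in 9 further members: Cnot3, Cnot7, Cnot11, Edc3, Edc4, Upf1 and Smg5 rose, and Patl1 and Zfp36l2 fell. No exosome subunit, exonuclease, TOB or BTG adaptor, PAN subunit or PARN was called. The assay reads bulk RNA, in which fewer cells of a type and less RNA per cell cannot be told apart. A call means an adjusted p under 0.05 in edgeR's quasi-likelihood test, with Benjamini-Hochberg adjustment over the 7738 genes tested.

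In all, 11 of 36 tested members were called (30.6%), beside 24.5% of all tested genes. Higher calls numbered 8 of 36, where 13.2% of all genes were called higher, and lower calls 3 of 36, where 11.2% were called lower. The median log2 fold change of the tested members was 0.08 (range -0.52 to 0.45), against -0.0035 over all tested genes. Positive values were found in 26 of the 36 members (72.2%) and in 49.6% of all genes. Treated and control libraries did not overlap in 25 of 36 members, 20 with treated libraries above and 5 with treated libraries below, while 59.2% of all tested genes had groups that did not overlap.

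Calls followed the level of the genes. All 11 called members had a mean of at least 30 CPM, where values in CPM from here on are scaled by TMM factors over the tested genes. Of the 24 members above that level 45.8% were called, close to the 42.9% of all 2879 genes above it. None of the 12 tested members below it was called by edgeR or limma-voom, nor any of the 7 for which DESeq2 gave an adjusted p (none for Tob2, Dcp1b, Dcp2, Exosc7 and Upf3b). In edgeR 13.5% of all 4859 tested genes below that level were called. Of the 12 members, 3 had an unadjusted p under 0.05 in edgeR, as did 2651 of all 7738 tested genes. Standard errors of the log2 fold change ran from 0.03 to 0.10 above 30 CPM and from 0.12 to 0.48 below it, so that a change of the size seen in Cnot1 was not resolved in most of the weakly counted members. This division by level was chosen after the values were seen.

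**Figure D1:**
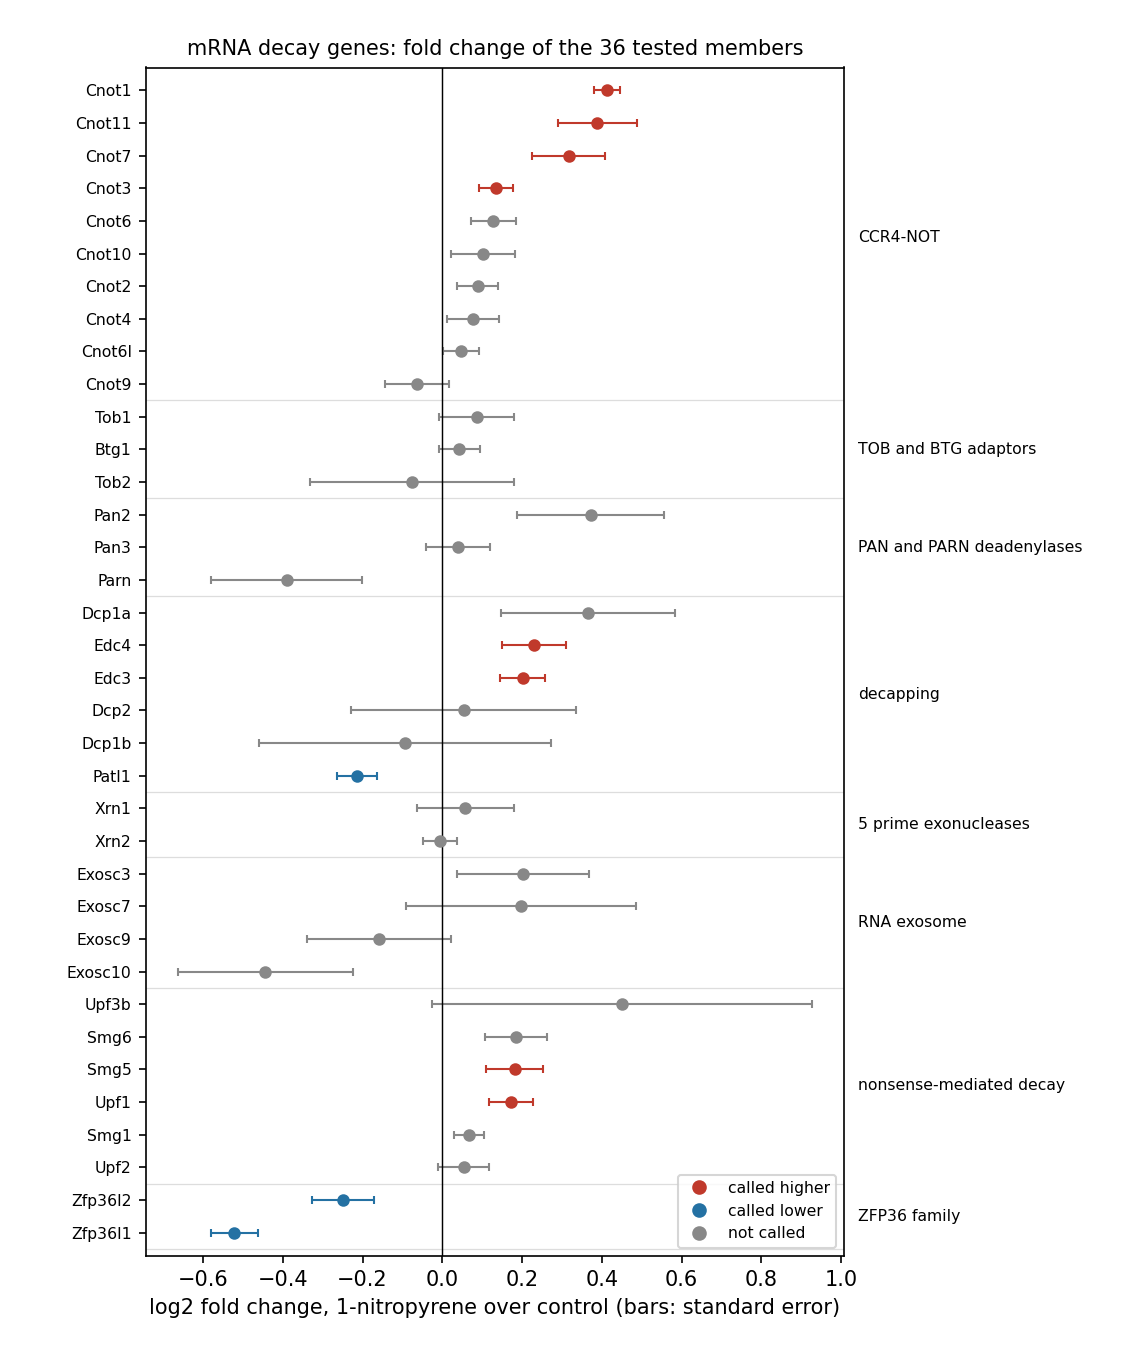
Log2 fold change (x axis, 1-nitropyrene over control) of the 36 tested members (y axis), grouped by role, with bars for the standard error of the edgeR fit and n = 2 libraries per group. Cnot1 at 0.41 and Zfp36l1 at -0.52 lie farthest from 0 relative to their errors, and the exosome subunits have wide bars.

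Among CCR4-NOT subunits 4 of 10 tested rose and 0 fell, beside 13.2% higher and 11.2% lower over all tested genes. All 10 had a mean of at least 30 CPM, where 42.9% of all genes were called in either direction, close to the 40% called here. The median log2 fold change of the 10 was 0.11. In 9 of these 10 both treated libraries lay above both controls, where 59.2% of all tested genes had groups that did not overlap in either direction. Cnot1 (GRCm38 chromosome 8, 95719451 to 95807464) encodes the scaffold on which the other subunits assemble. It was at 518 and 511 CPM in controls and at 698 and 671 CPM in treated libraries. The gap between groups was far larger than the spread within them, and the fitted log2 change was 0.41 (SE 0.03, adjusted p = 1.3e-35).

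The complex holds nucleases of 2 families. Cnot7, a CAF1 type deadenylase (chromosome 8, 40492540 to 40515847), rose from 40.3 and 39.7 CPM to 48.7 and 51.1 CPM, a log2 change of 0.32 (SE 0.09, adjusted p = 0.00374, and 0.0582 without control replicate 1). Its close paralog Cnot8 had 1 and 2 reads in controls and 2 and 3 in treated libraries and was not tested. The treated-to-control ratio of Cnot8 was 1.69 with an exact 95% counting interval of 0.33 to 10.9, which covers counting error only. The CCR4 type nuclease genes were not called. Cnot6 was at 121 and 118 CPM in controls and 129 and 132 CPM in treated libraries (0.13, SE 0.06, adjusted p = 0.0862), with groups that did not overlap. Cnot6l was at 208 and 218 CPM against 220 and 219 CPM, and its 95% interval of the ratio was 0.972 to 1.10.

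Cnot11 (chromosome 1, 39534992 to 39546889), whose protein binds with CNOT10 at the end of the scaffold, rose from 33.5 and 32.7 CPM to 45.1 and 41.7 CPM (0.39, SE 0.10, adjusted p = 0.000785). CNOT10 is its direct partner, and Cnot10 itself was not called (0.10, SE 0.08), at 56.4 and 54.2 CPM against 58.7 and 60.4 CPM. Cnot3 (chromosome 7, 3645268 to 3661109), a subunit of the NOT module, rose from 231 and 236 CPM to 255 and 257 CPM (0.13, SE 0.04, adjusted p = 0.0107). That call was lost without control replicate 1 (adjusted p = 0.170) or 1-nitropyrene replicate 3 (0.0526). The other NOT module subunit Cnot2 reached 0.09 (SE 0.05, adjusted p = 0.208), and the ubiquitin ligase Cnot4 0.08 (SE 0.07). Only Cnot9, which offers binding pockets for proteins of microRNA silencing, had a negative value (-0.06, SE 0.08), and its treated libraries at 51.9 and 63 CPM lay on either side of its controls at 60.2 and 59.5 CPM.

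Cnot1, Cnot3 and Cnot7 share exon sequence with genes on the opposite strand, over 132, 433 and 247 bp. The kit was stranded, and whether the counting used strand is not stated in the labels. The partner of Cnot1, 4930513N10Rik, had 100 to 143 reads per library against 3563 to 6072 for Cnot1. Leng1, the partner of Cnot3, rose as well (0.32, SE 0.11), with 175 to 308 reads against 1646 to 2514 for Cnot3. Zdhhc2, the partner of Cnot7, was not called (-0.24, SE 0.19). The part of partner reads in these changes was not tested.

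**Figure D2:**
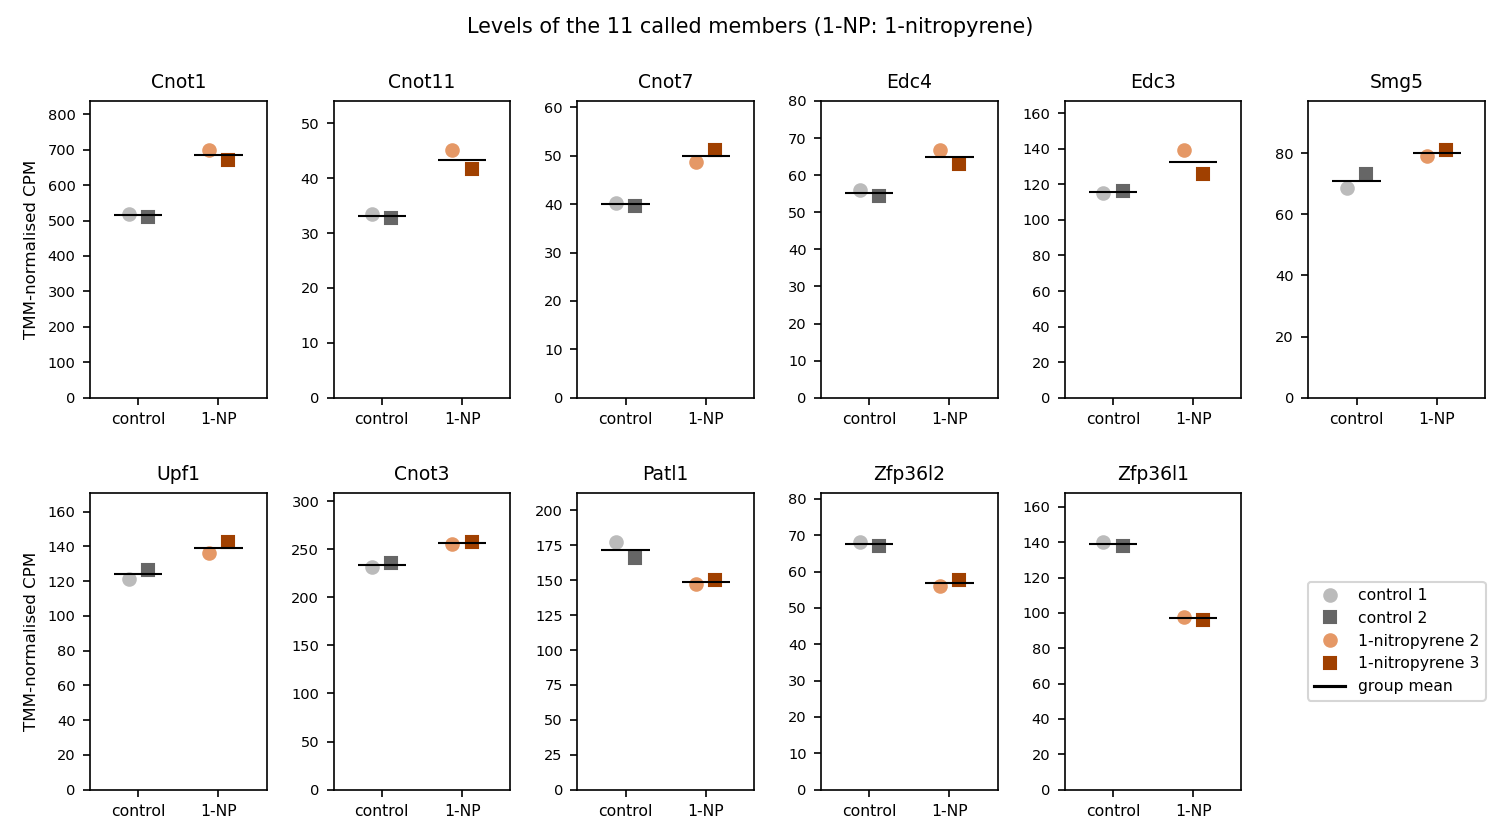
TMM-normalised CPM (y axis, from 0) of the 11 called members in each library, with controls and 1-nitropyrene libraries on the x axis and a line for each group mean. In all 11 panels the treated libraries lie on 1 side of both controls, as calls made from these libraries favour. The widest gaps are those of Cnot1 and Zfp36l1.

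The adaptors that tie deadenylases to their targets were not called: 0 of 3 in edgeR or limma-voom and 0 of 2 in DESeq2, which gave no adjusted p for Tob2. In edgeR 0 of 3 had an unadjusted p under 0.05, beside 2651 of all 7738 tested genes. Btg1, an antiproliferative protein that binds the CAF1 nucleases, was at 151 and 155 CPM in controls and 156 and 159 CPM in treated libraries. Its ratio was 1.03 with a 95% interval of 0.96 to 1.10. Tob1, which links CAF1 to the poly(A) binding protein, was at 36.8 and 45.3 CPM against 44.9 and 40.5 CPM, and the groups overlapped. Tob2 was counted less, at 4.47 to 7.74 CPM, with a standard error of 0.26.

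The deadenylases outside CCR4-NOT were not called (0 of 3 in edgeR, DESeq2 or limma-voom). In edgeR 2 of the 3 had an unadjusted p under 0.05, beside 2651 of all 7738 tested genes. Pan2, the nuclease of PAN2-PAN3, was at 10 and 9.32 CPM in controls and 13.8 and 11.4 CPM in treated libraries (0.37, SE 0.18, adjusted p = 0.133). Pan3, its adaptor subunit, was at 57.5 and 56.5 CPM against 58.1 and 59.2 CPM (0.04, SE 0.08). Parn, a poly(A)-specific ribonuclease that also trims small RNAs, went the other way, at 12.1 and 11.9 CPM against 10.1 and 8.23 CPM (-0.39, SE 0.19, adjusted p = 0.124). Groups did not overlap in any of these 3 genes, nor did they in 59.2% of all tested genes. The interval of the ratio was 1.01 to 1.66 for Pan2 and 0.589 to 0.987 for Parn. Both intervals run from near 1 to a change as large as that of Cnot1 or larger.

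Decapping factors moved both ways: of 6 tested members 2 rose and 1 fell, beside 13.2% higher and 11.2% lower over all tested genes. Their median log2 fold change was 0.13. The scaffold gene Edc4 (chromosome 8, 105880881 to 105894908), whose protein holds the decapping complex together, rose from 55.9 and 54.5 CPM to 66.7 and 63 CPM (0.23, SE 0.08, adjusted p = 0.0196). The Edc4 call held without 1-nitropyrene replicate 3 and was lost without control replicate 1 (adjusted p = 0.108), control replicate 2 (0.128) or 1-nitropyrene replicate 2 (0.161). Edc3 (chromosome 9, 57708540 to 57752499), an enhancer of decapping found in P-bodies, rose from 115 and 116 CPM to 139 and 126 CPM (0.20, SE 0.06, adjusted p = 0.00287), a call lost without control replicate 1 (0.0738) or 1-nitropyrene replicate 2 (0.182). Exon sequence of Edc3 overlaps that of the kinase gene Clk3 on the opposite strand over 1284 bp. Clk3, with 1621 to 2405 reads per library against 810 to 1249 for Edc3, rose by a similar amount (0.18, SE 0.04). The part of its reads was not tested.

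Patl1 (chromosome 19, 11912399 to 11945091) encodes the protein that links shortened tails to the decapping enzyme. It fell from 177 and 166 CPM to 147 and 150 CPM, a log2 change of -0.21 (SE 0.05, adjusted p = 0.000261), and missed the threshold without control replicate 1 (0.100). It shares no exon sequence with an opposite-strand gene. The enzyme Dcp2 itself had 32 to 52 reads per library, at 4.78 and 4.59 CPM in controls and 4.72 and 5.05 CPM in treated libraries. Its fold change of 0.05 carried an SE of 0.28, and the interval of its ratio, 0.708 to 1.52, was wide enough to hold a change like that of Cnot1 or Zfp36l1. The coactivator Dcp1a was at 8.28 and 5.02 CPM against 11.4 and 6.58 CPM, overlapping between groups, and Dcp1b at 2.30 and 3.87 CPM against 2.07 and 3.41 CPM.

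Neither exonuclease gene was called (0 of 2 in edgeR, DESeq2 or limma-voom). In edgeR 0 of the 2 had an unadjusted p under 0.05, beside 2651 of all 7738 tested genes. Xrn2, which degrades nuclear RNA and ends transcription, was among the best measured members, at 263 and 265 CPM in controls and 266 and 259 CPM in treated libraries. Its ratio of 0.996 had a 95% interval of 0.941 to 1.05. The ratios of all 11 called members lie outside that interval, as calls favour ratios away from 1. The cytoplasmic Xrn1 was at 23.2 and 27.1 CPM against 25.4 and 26.1 CPM, with an interval of 0.882 to 1.23.

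The RNA exosome was the least measured group. Of its 11 genes Exosc1, Exosc4, Exosc5, Exosc6 and Exosc8 were listed at 0 in all 4 libraries. For a single library a count of 0 allows up to 3 reads, which is 0.278 to 0.434 CPM of total counts. Exosc2 had 1 read in a control and 1 in a treated library. Dis3, the processive nuclease of the complex, had 9 and 5 reads in controls and 7 and 3 in treated libraries, a ratio of 0.726 with an exact 95% counting interval of 0.288 to 1.76. EXOSC4 to EXOSC9 form the ring of this complex, and growing cells need it. Of the 6 ring genes 4 were listed at 0, while Exosc7 had 29 to 47 reads and Exosc9 89 to 126 reads per library. Levels of different members are therefore not read as amounts of their proteins.

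The 4 exosome genes that could be tested were not called (0 of 4 in edgeR or limma-voom, 0 of 3 in DESeq2, which gave no adjusted p for Exosc7). In edgeR 1 of the 4 had an unadjusted p under 0.05, beside 2651 of all 7738 tested genes. Exosc10, the nuclear distributive nuclease, was at 8.09 and 11 CPM in controls and 7.71 and 5.88 CPM in treated libraries (-0.44, SE 0.22, adjusted p = 0.129). The cap subunit Exosc3 was at 13.2 and 12.2 CPM against 14 and 15.5 CPM (0.20, SE 0.17). Exosc7 stood at 0.20 (SE 0.29) and Exosc9 at -0.16 (SE 0.18).

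**Figure D3:**
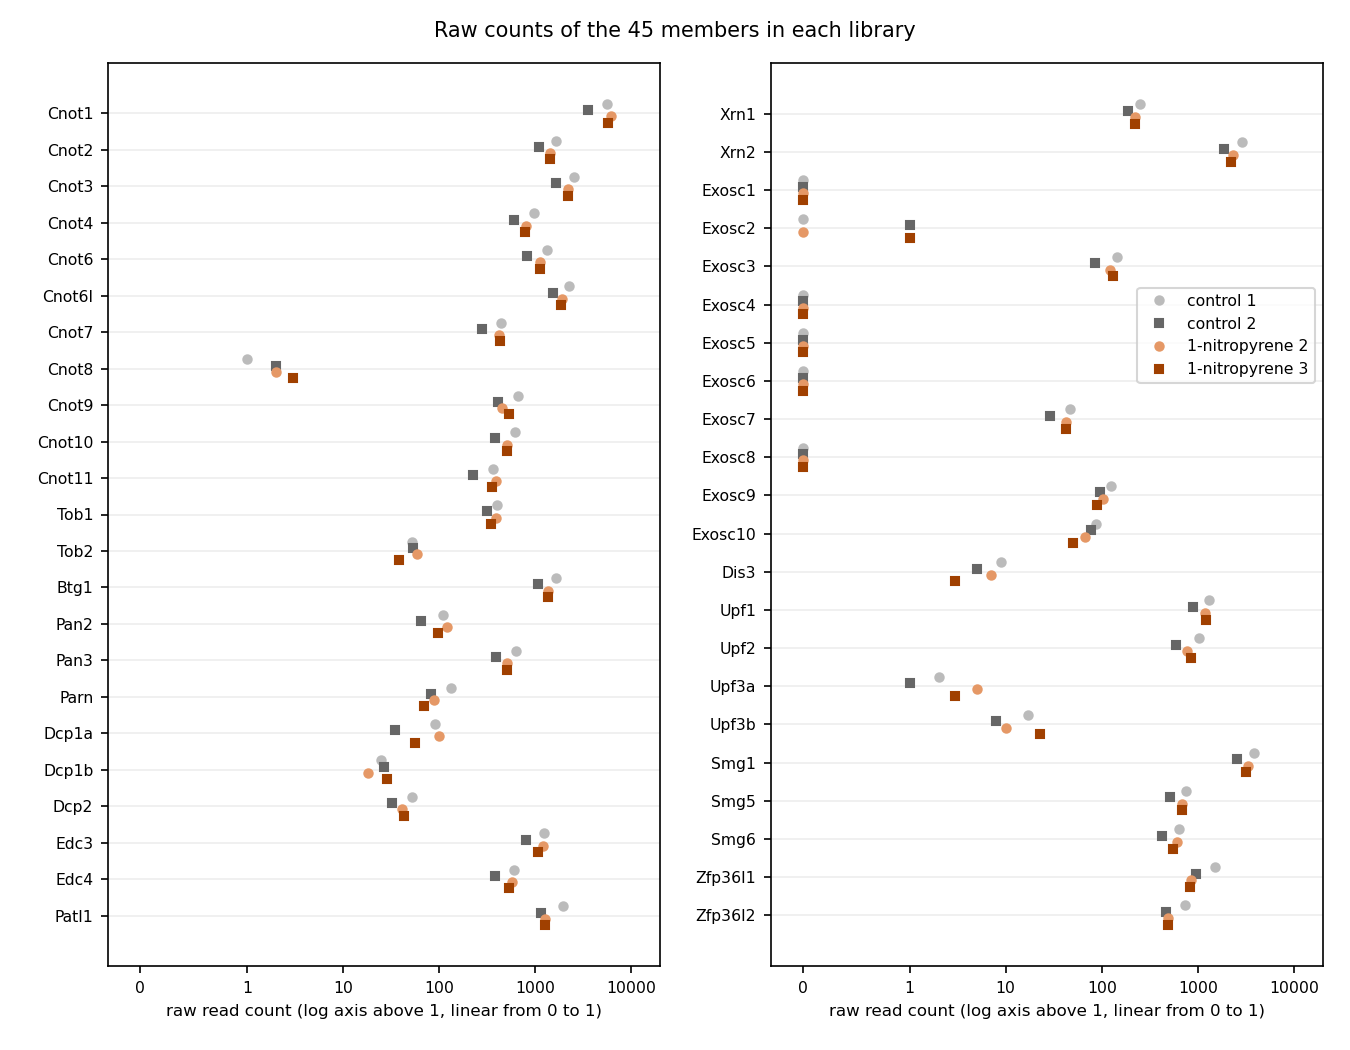
Raw read counts (x axis, log above 1 and linear from 0 to 1) of all 45 members (y axis) in the 4 libraries, not scaled for depth. Exosc1, Exosc4, Exosc5, Exosc6 and Exosc8 are at 0 in all libraries, and Cnot8, Exosc2, Dis3 and Upf3a have at most 9 reads in any library, while Cnot1 has 3563 to 6072.

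Among NMD factors 2 of 6 tested rose and 0 fell, beside 13.2% higher and 11.2% lower over all tested genes. All 6 had positive values, as did 49.6% of all tested genes, and their median was 0.18. Of the 6, limma-voom called 1, and DESeq2, which gave no adjusted p for Upf3b, called 0. Upf1 (chromosome 8, 70331525 to 70353278), the helicase at the centre of the pathway, rose from 121 and 127 CPM to 136 and 142 CPM (0.17, SE 0.06, adjusted p = 0.0106), a call lost without control replicate 1 (0.240) or 1-nitropyrene replicate 3 (0.116). Its opposite-strand neighbours Cers1 and Gdf1 had no read. Smg5 (chromosome 3, 88336260 to 88362338), which binds phosphorylated UPF1, rose from 68.7 and 73.2 CPM to 79.1 and 81 CPM (0.18, SE 0.07, adjusted p = 0.0457), just inside the threshold. Without any 1 of the 4 libraries the Smg5 call was lost, with adjusted p from 0.0740 (without control replicate 2) to 0.438 (without control replicate 1). The endonuclease gene Smg6 was just outside it, at 58.5 and 60.2 CPM against 69.1 and 65.3 CPM (0.18, SE 0.08, adjusted p = 0.0666). The near equal sizes of these changes mean that the call separates Smg5 from Smg6 by little.

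Smg1, the kinase that phosphorylates UPF1, was at 349 and 366 CPM in controls and 379 and 369 CPM in treated libraries (0.07, SE 0.04, adjusted p = 0.19). Upf2, the bridge between UPF1 and the exon junction complex, was at 94.8 and 85.6 CPM against 88.1 and 101 CPM, with overlapping groups. The paralogs Upf3a and Upf3b, which contact that complex, had few reads. Upf3b had 17 and 8 in controls and 10 and 23 in treated libraries, and the untested Upf3a 2 and 1 against 5 and 3, a ratio of 2.71 with an exact 95% counting interval of 0.65 to 15.9.

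Both ZFP36 family members fell, where 11.2% of all tested genes were called lower. Both had a mean of at least 30 CPM, where 42.9% of all genes were called in either direction. The ZFP36 proteins, with CCCH zinc fingers, bind AU-rich elements and recruit CCR4-NOT through CNOT1. Zfp36l1 (chromosome 12, 80107754 to 80113013) went from 140 and 138 CPM to 97.6 and 96 CPM, a log2 change of -0.52 (SE 0.06, adjusted p = 2.81e-17), and the interval of its ratio was 0.643 to 0.754. The 2 libraries of each group lay close together, and the groups were far apart. Zfp36l2 (chromosome 17, 84183931 to 84187947) went from 68.1 and 66.9 CPM to 56.1 and 57.6 CPM (-0.25, SE 0.08, adjusted p = 0.00833), and its call was lost without control replicate 1 (0.124) or 1-nitropyrene replicate 2 (0.0595). Their relative Zfp36 had 1 read in each control and 0 in treated libraries. Of the 2990 bp of exon sequence of Zfp36l1, 1672 bp are shared with Gm26669 on the opposite strand. Gm26669 had 507 and 332 reads in controls and 247 and 256 in treated libraries and fell too (-0.69, SE 0.10). The part of its reads in the fall of Zfp36l1 was not tested. Zfp36l2 shares 105 bp of exon sequence with AC132455.1 on the opposite strand, whose reads were not examined.

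Because the called members moved in opposite directions, the sequence before their start sites is shown for the pair with the largest fall and the pair with the largest rise among those in RefSeq's promoter table (GRCm38.p6) whose window holds at most 30 annotated exon bases. The table held 39 of the 45 members and 8 of the 11 called ones. Of the called members Cnot1, Cnot7 and Zfp36l2 were not in it. Each window is the 250 bases before the start, 5′ to 3′ on the gene's strand, with capitals for matches on either strand to the AP-1 site TGANTCA, the CRE half-site TGACG, the CCAAT box, the TATA box TATAAA, the GC box GGGCGG or the EGR site GCGNGGGCG. Matches of different motifs can overlap. Zfp36l1 lies at chr12:80113014-80113263 (minus strand), Patl1 at chr19:11912149-11912398, Edc4 at chr8:105880631-105880880 and Edc3 at chr9:57708319-57708568 (all plus strand).
Zfp36l1: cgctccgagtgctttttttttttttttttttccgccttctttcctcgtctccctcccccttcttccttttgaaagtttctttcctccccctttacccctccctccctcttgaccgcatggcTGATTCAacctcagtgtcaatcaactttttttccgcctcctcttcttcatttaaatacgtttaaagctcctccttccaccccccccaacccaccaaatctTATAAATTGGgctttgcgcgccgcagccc
Patl1: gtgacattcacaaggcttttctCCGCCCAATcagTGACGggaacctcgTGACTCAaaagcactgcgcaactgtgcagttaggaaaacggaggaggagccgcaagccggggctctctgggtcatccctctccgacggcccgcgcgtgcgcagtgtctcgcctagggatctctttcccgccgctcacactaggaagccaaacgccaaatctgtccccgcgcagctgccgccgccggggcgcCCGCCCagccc
Edc4: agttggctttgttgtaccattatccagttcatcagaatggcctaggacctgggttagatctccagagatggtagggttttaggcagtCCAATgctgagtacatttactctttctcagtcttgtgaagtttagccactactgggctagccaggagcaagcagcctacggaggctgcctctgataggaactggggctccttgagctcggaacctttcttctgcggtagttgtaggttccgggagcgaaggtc
Edc3: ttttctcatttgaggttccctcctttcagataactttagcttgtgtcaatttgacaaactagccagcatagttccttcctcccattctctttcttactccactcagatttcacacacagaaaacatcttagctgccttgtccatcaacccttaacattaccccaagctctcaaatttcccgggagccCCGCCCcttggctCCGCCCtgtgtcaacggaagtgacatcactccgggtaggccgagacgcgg

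Both windows of genes that fell held an AP-1 site, TGATTCA at 129 to 123 bases before the start of Zfp36l1 and TGACTCA at 202 to 196 bases before that of Patl1. None of the 6 windows of genes that rose (Cnot3, Cnot11, Edc3, Edc4, Smg5, Upf1) held that motif. Those of Cnot11 and Smg5 hold 147 and 139 annotated exon bases, counted from any gene. The window of Cnot11 lies within its annotated gene, while that of Smg5 lies before its own. Of all 32851 windows, 6.75% had an AP-1 site. Zfp36l1 also carried the only TATA box, 29 to 24 bases before its start and overlapping a CCAAT match, where 12.4% of all windows had a TATA box. GC boxes were found in Edc3 (2), Upf1 (2), Cnot11 (3), Cnot3 (1) and Patl1 (2), beside 32.7% of all windows. CCAAT boxes were found in Cnot3 (4), Edc4 (1), Patl1 (1) and Zfp36l1 (1), where 33.8% of all windows had at least 1. CRE half-sites were found in Cnot3 and Patl1 (17.8% of windows), and the EGR site in no window of a called member (4.7% of all). The motifs were chosen after some of these sequences were seen, and a match is a description of letters, not of a bound factor.

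Ratios between related members were taken within each library, since they need no scaling between libraries. Counts were divided by exon length, and 7 of 10 pairs had at least 10 reads in every library for both genes. The share of Zfp36l2 relative to Zfp36l1 per kb was 0.412 in both controls and 0.487 and 0.508 in treated libraries, so that the ratio rose 1.21-fold, with treated libraries above controls. Pan3 relative to Pan2 was 3.25 and 3.43 in controls and 2.38 and 2.94 in treated libraries. Cnot6l relative to Cnot6 was 1.10 and 1.19 against 1.09 and 1.07. These 3 pairs did not overlap between groups and had an exact two-sided permutation p of 0.333, the smallest that 2 against 2 libraries allow. The ratios of Tob2 to Tob1, Dcp1b to Dcp1a, Xrn2 to Xrn1 and Smg6 to Smg5 overlapped. The last was even across libraries, between 0.664 and 0.719, and that of Dcp1b to Dcp1a was not, running from 0.361 to 1.00 within the controls alone.

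**Figure D4:**
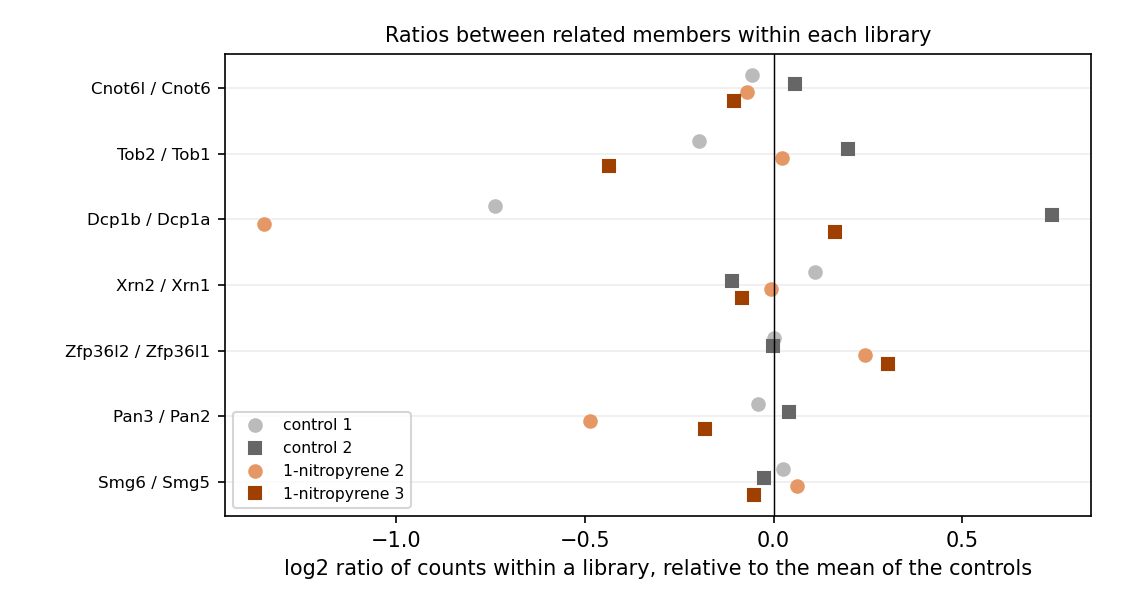
Log2 ratio of counts between related members within each library (x axis), relative to the mean of the controls, for the 7 pairs with at least 10 reads in every library (y axis). Treated libraries lie above both controls for Zfp36l2 over Zfp36l1 and below both for Pan3 over Pan2 and Cnot6l over Cnot6. Dcp1b over Dcp1a spreads widely within each group.

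The calls differed in how far they held under other tools and with fewer libraries. Cnot1 and Zfp36l1 were called in all 16 refits, among them a test against a 1.2-fold change that called 2 of 36 members and 5.85% of all genes. DESeq2 called 3 of the 31 members for which it gave an adjusted p, Cnot1, Patl1 and Zfp36l1, beside 16.1% of all genes. Cnot11 was called in all 4 fits that left out 1 library and missed the threshold in DESeq2 (adjusted p = 0.0541), while Smg5 was called in none of those 4. Without control replicate 1 the calls fell to Cnot1, Cnot11 and Zfp36l1, 3 of 36 members (15.2% of all genes). Of 36 members 9 were called without control replicate 2 (17% of all genes), 7 without 1-nitropyrene replicate 2 (18.9%) and 9 without 1-nitropyrene replicate 3 (18.7%). Dcp1a was called without 1-nitropyrene replicate 3 (0.70, adjusted p = 0.0324).

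**Figure D5:**
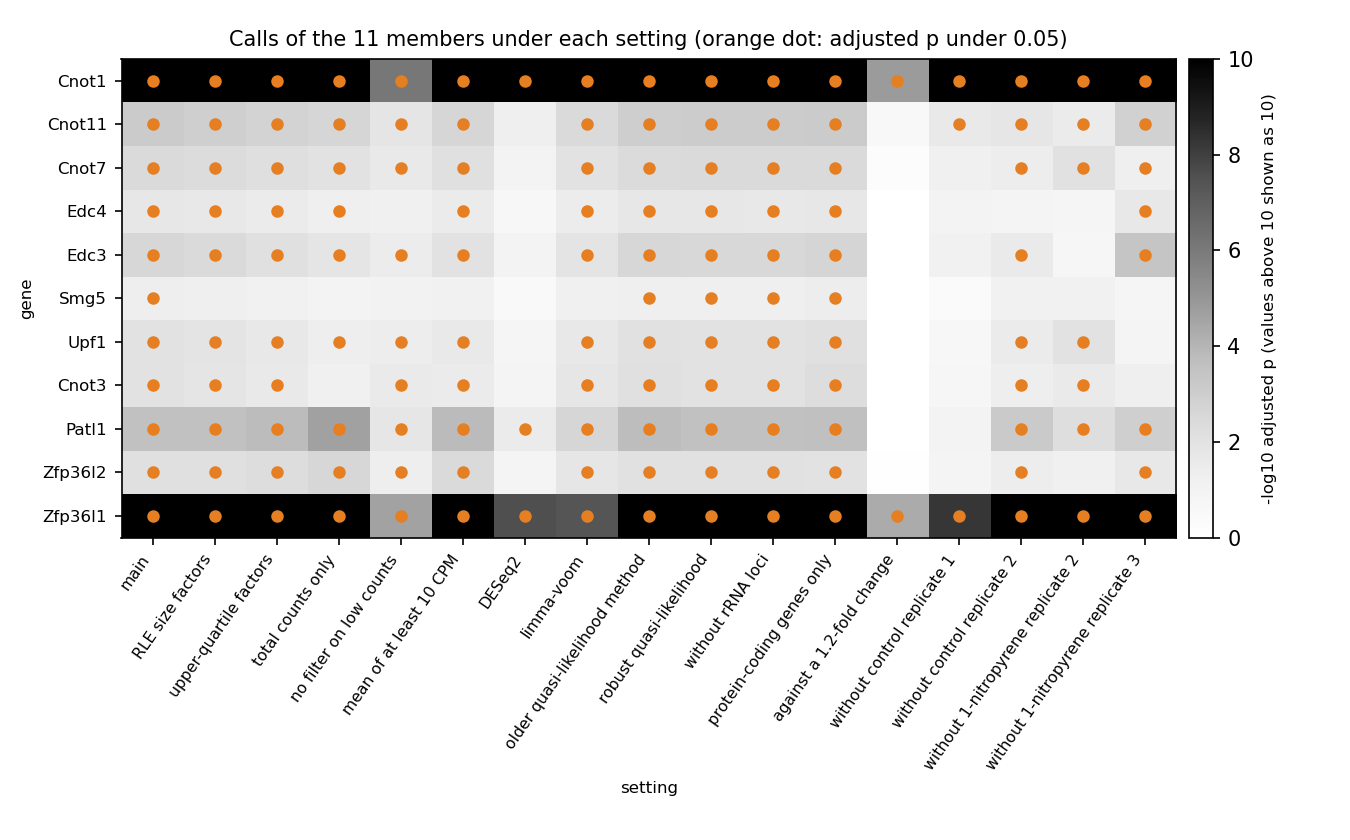
Adjusted p as -log10 (grey scale, capped at 10) of the 11 called members (y axis) in the reported fit and 16 alternatives (x axis), with an orange dot where the adjusted p is under 0.05. Cnot1 and Zfp36l1 have a dot in every column, Patl1 and Cnot11 miss 2 columns, and Smg5 has a dot in the reported fit and 4 alternatives.

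A wider list of 77 partners of these machineries had 57 tested genes, of which 9 rose and 5 fell (24.6% called, beside 24.5% of all tested genes), with a median log2 fold change of 0.02. Among genes of NMD and the exon junction 4 of 10 rose and 0 fell, beside 13.2% higher and 11.2% lower over all tested genes. Gspt1, the release factor eRF3, rose from 615 and 621 CPM to 770 and 774 CPM (0.32, SE 0.03, adjusted p = 9.76e-24), and its partner Etf1, eRF1, from 808 and 833 CPM to 912 and 895 CPM (0.14, SE 0.03). Smg8, which restrains the kinase SMG1, rose from 20.4 and 17.8 CPM to 26.5 and 24.7 CPM (0.40, SE 0.13). Eif4a3 and Casc3 of the exon junction core stood at 0.04 (SE 0.09) and -0.03 (SE 0.09).

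Partners of decapping gave 3 higher and 0 lower calls of 9 tested, beside 13.2% higher and 11.2% lower over all tested genes. Lsm14a, a P-body protein, rose from 92.5 and 91.2 CPM to 135 and 134 CPM (0.55, SE 0.06), and Lsm2, of the ring that binds shortened tails with PATL1, from 12.7 and 12.8 CPM to 21.2 and 22 CPM (0.76, SE 0.15). Of the other genes of that ring Lsm1, Lsm3, Lsm6 and Lsm7 were listed at 0, and Lsm4 and Lsm5 were not called. Ddx6, the helicase of P-bodies, was not called (-0.12, SE 0.07). Exosome partners and other nucleases gave 1 higher call of 13, where 13.2% of all tested genes were called higher. It was Rbm7 of the nuclear exosome targeting complex (0.43, SE 0.13).

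Genes of deadenylation and tails gave 0 higher and 3 lower calls of 13, beside 13.2% higher and 11.2% lower over all tested genes. Tnrc6c and Tnrc6b encode GW182 proteins, through which microRNA complexes recruit CCR4-NOT. Tnrc6c fell from 158 and 162 CPM to 119 and 121 CPM (-0.41, SE 0.05), and Tnrc6b from 162 and 161 CPM to 136 and 127 CPM (-0.30, SE 0.05). Their paralog Tnrc6a, at 381 and 381 CPM against 371 and 361 CPM, was not called (-0.06, SE 0.04). Angel1 fell by 0.65 (SE 0.18) on the log2 scale, and the poly(A) binding protein gene Pabpc1 kept nearly the same level, 2731 and 2737 CPM against 2744 and 2734 CPM. RNA-binding proteins that set mRNA decay gave 1 higher and 2 lower calls of 12, or 25% called beside 24.5% of all tested genes. Khsrp rose (0.19, SE 0.03), and Rc3h2 (-0.24, SE 0.04) and Cpeb2 (-0.29, SE 0.06) fell. Elavl1 and Hnrnpd were not called.

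Transcripts on which these machineries act were taken from lists of reported substrates. Of 23 NMD substrates 13 were tested, with 1 higher and 3 lower and a median of -0.10. That is 30.8% called, beside 24.5% of all tested genes. The mTORC1 inhibitor Ddit4 fell most (-1.33, SE 0.14), the splicing factor Srsf2 fell by 0.17 (SE 0.03) and Atf4 by 0.15 (SE 0.05), while the splicing factor Hnrnpl rose from 539 and 526 CPM to 724 and 721 CPM (0.44, SE 0.03). The fall of Ddit4 was known when this list was written. The snoRNA host genes Gas5, Snhg1, Snhg12, Snhg15 and Zfas1, often used as readouts of NMD, were listed at 0. Of 26 transcripts with AU-rich elements 13 were tested, with 0 higher and 7 lower and a median of -0.49. Their called share was 53.8%, beside 24.5% of all tested genes, of which 11.2% were called lower. Nfkbia (-1.37, SE 0.07), Egr1 (-1.17, SE 0.05), Klf6 (-0.73, SE 0.06), Junb (-0.49, SE 0.06), Dusp1 (-0.58, SE 0.16) and Mcl1 (-0.20, SE 0.08) fell, as did Bcl2 at low counts. This list was written with falls of Egr1, Klf6, Junb and Nfkbia already known from these data, so its direction is no independent evidence, and these are levels of mRNA, not rates of decay.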

How the data were processed

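Members, lists and tests were chosen with earlier results of these data known. The authors deposited a table of whole-number counts for each gene and library, made from polyadenylated RNA with a stranded library kit, per the labels. Tools named in the submitters' processing notes, without roles, are HISAT2 2.1.0, DESeq2 and featureCounts 1.6.3, with GRCm38 (mm10) as build. Strand setting, annotation and treatment of multi-mapped reads are not stated there, so genes that overlap or have near copies can share reads. GENCODE M21 matched 53360 of 53465 identifiers.

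The tests used R 4.3.3, with edgeR 4.0.16 for the reported values and limma 3.58.1 beside it. The filterByExpr function left 7738 genes. TMM factors lay between 0.989 and 1.01. The quasi-likelihood fit (legacy set to FALSE, intercept and treatment) gave a biological coefficient of variation of 2.34% and infinite prior degrees of freedom. No gene therefore had a spread of its own, and each was tested with the spread fitted for genes of its level. Standard errors are the absolute log2 fold change over the square root of F. Tests are two-sided. The fit was tested on simulated data. Ratio intervals are at 95%.

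Named with values were all called members, all untested ones and the catalytic and core members, and up to 6 called genes with the smallest p of each further list. Other genes named were chosen after their values were seen. Some genes of the further lists are counted there and not reported here by name. Alternatives were RLE, upper-quartile and no scaling factors, other filters, DESeq2 1.42.0, limma-voom, the older and the robust quasi-likelihood method, tables without rRNA loci or with protein-coding genes only, a test against a 1.2-fold change, and fits without any 1 library. In those the group with a single library is assumed to vary like the other group.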

Additional observations from a re-analysis of the deposited data

How the results depend on the processing

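No paired analysis was possible because the groups share only the replicate number 2. Against 8 members called higher and 3 lower, DESeq2 gave 1 higher and 2 lower, and the test against a 1.2-fold change 1 higher and 1 lower. The count restricted to members with no opposite-strand exon gave 3 higher and 1 lower. That last count covers 22 tested members in place of 36, and 4 of them were called, against 7 of the 14 that overlap a gene on the other strand. Why the shares differ was not tested. Leaving out each library in turn gave 2 to 6 higher and 1 to 3 lower. The cause of the lower counts in DESeq2 was not tested. Over all genes, 1894 calls became 836 in DESeq2, 453 against a 1.2-fold change and 1201 without control replicate 1. None of the 11 called members changed sign in any of the 16 refits, and 2 of the 11 (Cnot1 and Zfp36l1) were called in all 16. Of 25 tested members that were not called, 1 (Dcp1a) was called in 1 refit, and 9 changed sign in at least 1. Fold changes of members under 30 CPM are limited by counts.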

Other observations

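Levels per kb of exon spanned a wide range among the 36 tested members, from 0.41 CPM per kb for Upf3b to 66.2 CPM per kb for Xrn2. These are means over all 4 libraries. Cnot1, Cnot2, Cnot3, Patl1, Zfp36l1, Btg1 and Upf1 lay between 28.5 and 39.4, and no order is given among them, since it differs between control and treated libraries. Among decapping genes Edc3 was at 21.4 and Edc4 at 10.9 CPM per kb, while Dcp2 was at 0.55, Dcp1a at 0.95 and Dcp1b at 0.459. In the exosome Exosc3 was at 10.4 CPM per kb and Dis3 at 0.0871. These are levels in this table, in which 5 genes of the same complex were listed at 0.

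Of the 14 tested members whose exons overlap a gene on the other strand 7 were called (5 higher, 2 lower), and of the 22 without such overlap 4 were called (Cnot11, Edc4 and Smg5 higher, Patl1 lower). Opposite-strand partners that were called themselves moved the same way as the member in Cnot3 (Leng1), Edc3 (Clk3) and Zfp36l1 (Gm26669), and Ccna2, the partner of the uncalled Exosc9, fell by 0.28 on the log2 scale (SE 0.09). The pseudogenes Zfp36l1-ps and Btg1-ps1 had 0 reads, and Btg1-ps2 had 4 reads in all.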
